A study of Mus musculus with 24 samples.

Results

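The question asked of these livers was whether the response to a β3-adrenergic agonist depended on the hepatocyte's PPARα. The agonist was CL316243 and the measure was the interaction, the response in LKO mice minus the response in LWT mice. All 24 male mice of the series entered it, 6 in each of 4 groups. LWT_Vehicle and LKO_Vehicle received 0.5% carboxymethyl cellulose in water by gavage, and LWT_Beta3 and LKO_Beta3 received CL316243 at 3 mg/kg in that vehicle. The dose was given at ZT10, that is 10 h after lights on, and the mice were killed at ZT16 (16 h), with a standard diet freely available. The series title describes C57Bl/6J mice whose hepatocytes express PPARα or do not, and the labels give the genotypes as LWT and LKO. The driver of the deletion, the deleted exons and the ages are not given in the sources used here. RNA of 1 liver went on each 1-colour Agilent array.

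Fatty acids are ligands of PPARα, a nuclear receptor that, with its partner RXR, switches on genes for the uptake, activation and oxidation of fatty acids in fasting liver. CL316243 acts on the β3-adrenergic receptor, which is best known from adipocytes, where it drives lipolysis and the release of fatty acids into the blood. The liver is the main recipient of those fatty acids.

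Values are log2 levels relative to the 75th percentile of the array, so that a level of 0 is that percentile and a difference of 1 is a doubling. A gene was called where limma's adjusted p was under 0.05. Called interactions were sorted by the effects within each genotype. A response was lost where it was called in LWT and not in LKO, and gained where the reverse held. It was reversed where both genotypes were called in opposite directions. Where both were called in 1 direction it was reduced if smaller in LKO and amplified if larger. An effect that was not called is not shown to be 0.

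The 24 arrays lay on 3 slides, each with 2 mice of every group. The arrays had 26985 to 34202 probes well above background and no saturated spots. LKO_Beta3 replicate 3 stood apart: its mean correlation with the other LKO_Beta3 arrays was 0.9717, and the next lowest of the 24 was 0.9828. Without it, 1535 genes were called for the interaction in place of 1153. All 8 hepatocyte markers were measured, and their summed log2 level lay between 11.55 and 12.01 in every group. In these bulk livers, fewer cells of a type and less RNA per cell cannot be told apart. Of the 9 lists of cell type markers, 8 had no member called for the interaction by limma (5 of their 61 genes had an unadjusted p under 0.05), and the adipocyte list had 1, Cidec, which fat-laden hepatocytes also express. Adipoq, the defining adipocyte product, did not pass the filter on dim probes.

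Ppara itself was read first. Its probe (chr15:85632110-85632169, mm9) gave 5.68 ± 0.16 in LWT_Vehicle and 5.01 ± 0.15 in LKO_Vehicle (SD, n = 6). It gave 6.23 ± 0.27 in LWT_Beta3 and 4.32 ± 0.64 in LKO_Beta3. No LKO mouse overlapped an LWT mouse of the same treatment, and the two-sided exact permutation p was 0.00216 under each treatment, the smallest that 924 splits allow. The other Ppara probe gave LKO levels lower by 0.92 and 2.09, with the same exact permutation p. Signal remained well above background on every LKO array, and whether these probes lie in the deleted part is not given in the sources used here. The Ppara response was itself reversed, with an effect of 0.55 in LWT and -0.69 in LKO (interaction -1.23 ± 0.29 SE, adjusted p = 0.012).

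Over all 21331 genes the agonist changed 8180 in LWT (38.3%) and 8596 in LKO (40.3%). The interaction was called for 1153 (5.41%), of which 462 had the more positive response in LKO (2.17%) and 691 the more negative one (3.24%). The median interaction over all genes was 0.03. Between genotypes, 251 genes differed under vehicle (1.18%) and 3393 under CL316243 (15.9%), 1651 of the latter higher in LKO (7.74%) and 1742 lower (8.17%). Responses lost in LKO numbered 467 (2.19%), 349 of them rises in LWT (1.64%) and 118 falls (0.553%). A further 346 were gained (1.62%), 222 upward (1.04%) and 124 downward (0.581%). There were 140 reduced responses (0.656%), 130 reversed ones (0.609%) and 68 amplified ones (0.319%; 55 upward, 0.258%, and 13 downward, 0.0609%), and 2 genes were called in neither genotype (0.00938%). Of the reversed responses, 86 were rises in LWT that became falls in LKO (0.403%), and 44 were falls that became rises (0.206%). Among the 349 lost rises the median effect was 0.81 in LWT and -0.05 in LKO. The 95% interval of the LKO effect stayed within 1.5-fold of no change for 221 of them, and within a doubling or halving for 311.

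**Figure D1:**
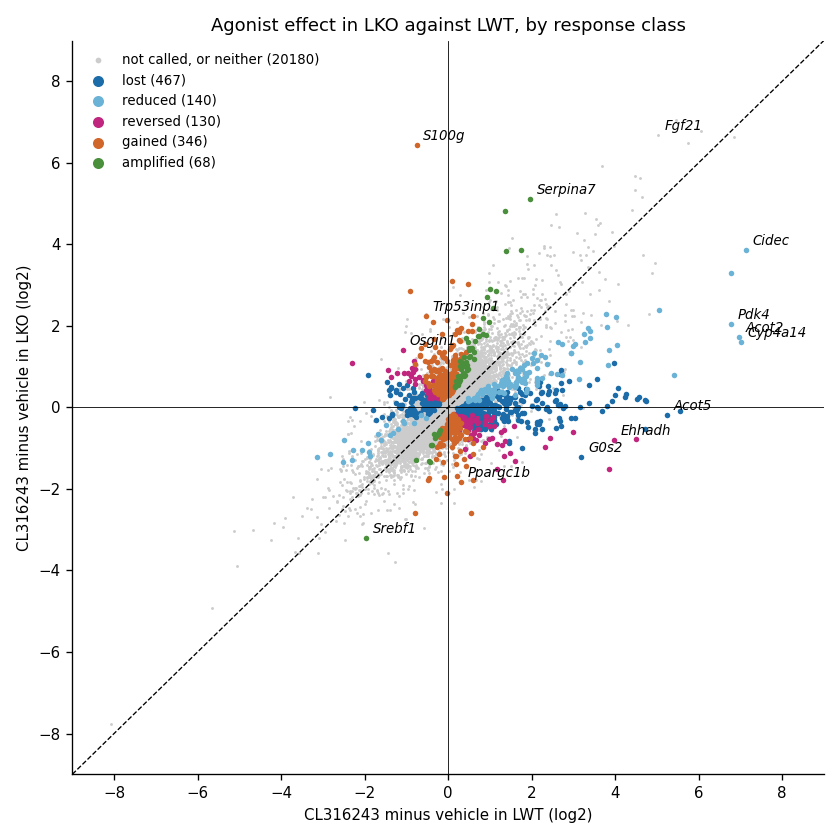
The CL316243 effect in LKO (vertical axis, log2) against that in LWT (horizontal axis, log2) for all 21331 genes, with 1 point per gene, coloured by response class; the dashed line marks equal effects. Lost responses lie along the horizontal axis out to LWT effects above 5, reversed ones at the upper left and lower right, and gained ones along the vertical axis.

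The functions with the highest share of called members were those of fatty acid oxidation, and every call but 1 in the 5 lists drawn below had the more negative response in LKO. The exception was Acot9. In the carnitine shuttle, which carries fatty acyl groups into mitochondria, 8 of 11 genes were called (72.7%). The shares were 62.5% in mitochondrial β-oxidation, 56.2% among acyl-CoA thioesterases, 40.0% in peroxisomal β-oxidation and 38.1% in peroxisome biogenesis, beside 5.41% of all genes. At the other end, 2 of 78 oxidative phosphorylation subunits (2.56%), 1 of 50 urea cycle and amino acid genes (2.0%) and none of 21 chemokines were called by limma, with 3 of the chemokines at an unadjusted p under 0.05.

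**Figure D2:**
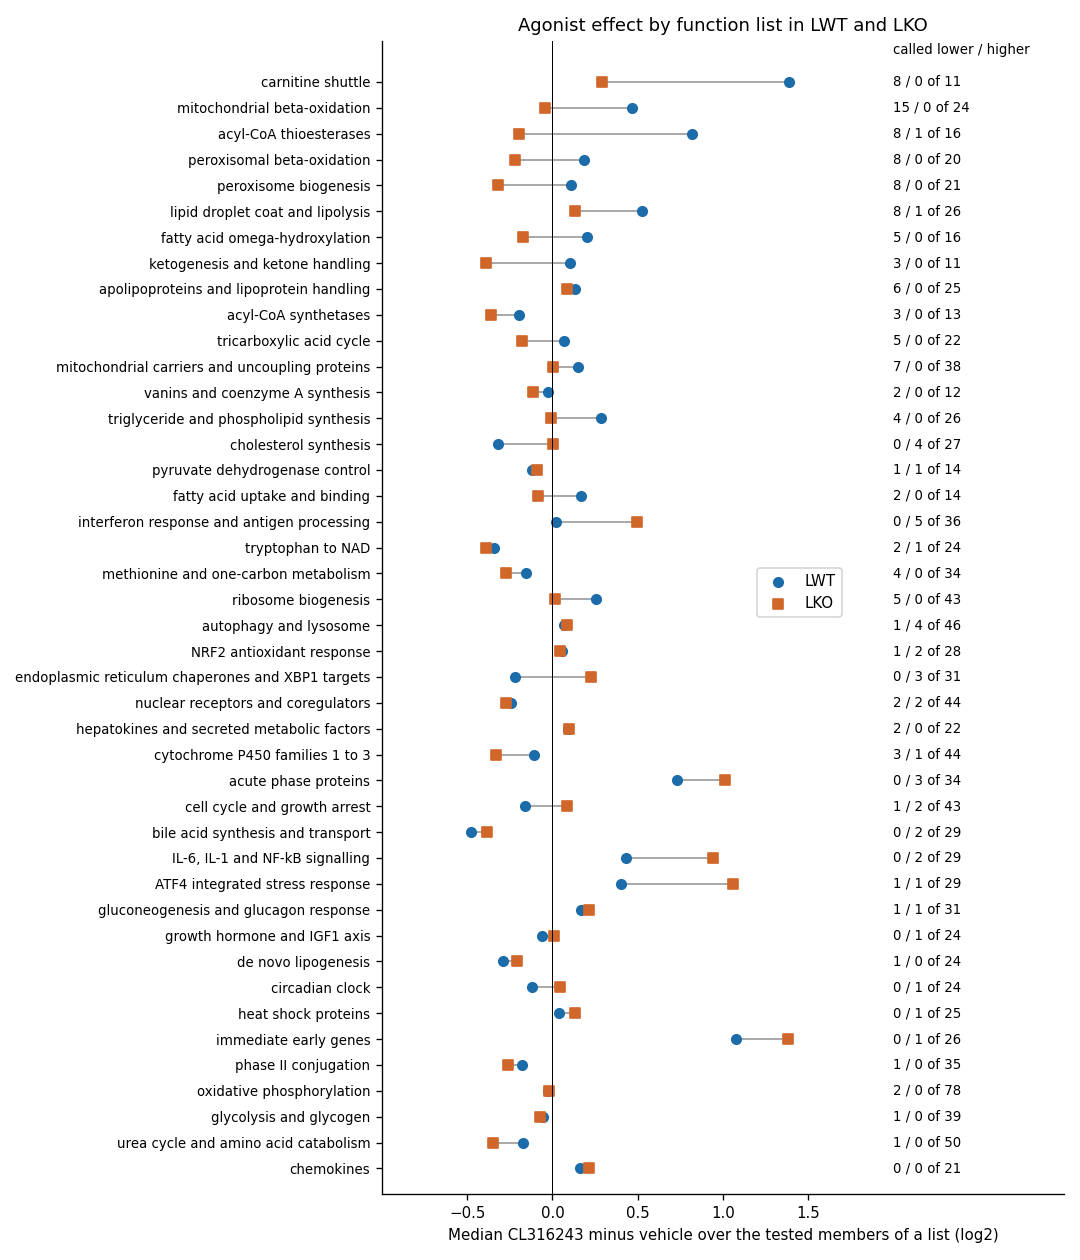
Median CL316243 effect (horizontal axis, log2) over the tested members of 43 function lists in LWT (circles) and LKO (squares), with the number of members called for a lower or a higher response in LKO at the right. Lists are ordered from the highest share called, the carnitine shuttle with 8 of 11, to chemokines with 0 of 21.

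In the carnitine shuttle the agonist raised 9 of 11 genes in LWT and 4 in LKO, beside 18.9% and 20.9% of all genes, and 3 fell in LKO, beside 19.4%. The median effect was 1.38 in LWT and 0.29 in LKO. Cpt1b, the muscle form of the outer membrane acyltransferase, lay between -4.39 and -2.93 in LWT_Vehicle (median -3.15) and between -0.83 and 0.14 in LWT_Beta3 (median -0.13). Its range was -3.67 to -3.17 in LKO_Vehicle (median -3.39) and -2.96 to -2.39 in LKO_Beta3 (median -2.70). Neither genotype's groups overlapped, so the rise remained in LKO at a smaller size, 0.70 against 3.13 (interaction -2.43 ± 0.28, adjusted p = 7.2e-06). Crat, which makes short acylcarnitines, rose by 2.80 in LWT and had an effect of 0.03 in LKO, where 1 mouse, replicate 3, lay at 0.08 and the next at 1.98. Crot, its peroxisomal counterpart, Cpt2 and the carrier Slc25a20 were lost too, with LWT rises of 2.24, 1.05 and 1.38. The carnitine transporters Slc22a5 and Slc22a21 kept part of their rise, 2.30 of 3.78 and 1.60 of 3.28. Aldh9a1, an enzyme of carnitine synthesis, was reversed, at 0.34 and -0.41. Cpt1a, the liver form of the acyltransferase, was not called for the interaction: its effect was 1.15 in LWT and 0.83 in LKO (adjusted p = 0.473).

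In mitochondrial β-oxidation 16 of 24 genes rose in LWT and 3 in LKO, beside 18.9% and 20.9% of all genes. There were 15 interactions called (62.5%, beside 5.41% of all genes), 11 of them lost rises, which made up 1.64% of all genes. The steps lost ran from the acyl-CoA dehydrogenases Acadm, Acadvl and Acad11 to both subunits of the trifunctional protein, Hadha and Hadhb, and to the thiolase Acaa2. Also lost were the auxiliary enzymes Eci1 and Decr1, Mlycd, and the electron transfer genes Etfb and Etfdh. Etfdh passes electrons from the dehydrogenases to the respiratory chain. Its level was 4.95 to 5.21 in LWT_Vehicle (median 5.06) and 6.10 to 6.40 in LWT_Beta3 (median 6.30). In LKO it was 3.89 to 4.17 under vehicle (median 4.07) and 3.94 to 4.13 under CL316243 (median 4.05). The LWT groups stood apart and the LKO groups coincided (1.22 in LWT, 0.00 in LKO, interaction -1.21 ± 0.10, adjusted p = 2.52e-08). Its level was also lower in LKO than in LWT under vehicle, by 1.03. Hadhb behaved alike, at 0.89 and -0.15, and Acad11 at 0.85 and -0.13. Acadl and Eci2 were reduced, Acads was reversed at 0.24 and -0.38, and Hadh was gained downward, at 0.12 and -0.57. The mean level of the list, relative to LWT_Vehicle, lay between 0.20 and 0.53 in LWT_Beta3 and between -0.58 and -0.35 in LKO_Beta3. In LKO_Vehicle it lay between -0.50 and -0.30.

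Acyl-CoA thioesterases, which split acyl-CoA into free fatty acid and coenzyme A, held 3 of the largest differences among the named genes. Acot2, the mitochondrial form, lay between -2.11 and -0.08 in LWT_Vehicle (median -1.58) and between 5.09 and 5.87 in LWT_Beta3 (median 5.49). In LKO it lay between -1.05 and -0.19 under vehicle (median -0.62) and between 0.84 and 1.27 under CL316243 (median 1.17). Both genotypes' groups were apart, and the rise was 6.97 in LWT and 1.73 in LKO (interaction -5.24 ± 0.33, adjusted p = 1.82e-09). Acot5 (chr12:85416634-85416693, mm9) rose by 5.23 in LWT and its LKO effect was -0.19, with LKO mice between -1.43 and 0.16 under vehicle and -1.38 and -0.06 under the agonist. Another Acot5 probe gave 5.18 in LWT and 1.18 in LKO (interaction -4), a smaller rise and not an effect near 0. Acot1 had effects of 4.52 and 0.22. Acot3 was reversed, at 3.85 and -1.50 (interaction -5.36 ± 0.63, adjusted p = 8.61e-06). Under vehicle the Acot5 and Acot1 levels were higher in LKO than in LWT, by 1.59 and 1.35. These genes sit side by side on chromosome 12, from 85334553 for the Acot2 probe to the Acot5 probe, and are near-identical copies, so probes may read each other's transcripts. Acot4, Acot6 and Acot8 lost rises of 2.18, 1.72 and 1.39. Acot12 was reversed at 0.39 and -0.44. Acot9 went the other way, with a rise of 0.75 in LWT and 1.93 in LKO.

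Peroxisomes shorten very long fatty acids. Ehhadh, the bifunctional enzyme of that pathway (chr16:21761914-21761973, mm9), had the lowest interaction p of the named genes. Its level lay between 3.18 and 3.80 in LWT_Vehicle (median 3.64) and between 7.20 and 7.84 in LWT_Beta3 (median 7.71). It lay between 3.58 and 4.18 in LKO_Vehicle (median 3.90) and between 2.83 and 3.42 in LKO_Beta3 (median 3.06). The vehicle groups overlapped, and all 6 LKO_Beta3 mice were below all 6 LKO_Vehicle mice. The effect was 3.98 in LWT and -0.80 in LKO (interaction -4.77 ± 0.19, adjusted p = 2.3e-13), and it was -4.75, -4.70 and -4.87 within slides 1, 2 and 3. Acaa1a, Acaa1b, Hsd17b4, Abcd3 and Ephx2 lost rises of 0.42, 1.35, 0.79, 1.1 and 0.48. Hacl1, which takes 1 carbon from branched chains, was gained downward at -1.08.

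Peroxisome assembly had the most reversals of the 5 lists. Pex3, Pex14, Pex16 and Pex19, which bring proteins and membrane into the organelle, all rose in LWT and fell in LKO. Pex19 lay between 3.06 and 3.42 in LWT_Vehicle (median 3.31) and between 3.64 and 4.10 in LWT_Beta3 (median 4.01). It lay between 2.82 and 3.21 in LKO_Vehicle (median 3.07) and between 2.37 and 2.94 in LKO_Beta3 (median 2.67). The LWT groups were apart and the LKO groups overlapped (0.69 and -0.38, interaction -1.06 ± 0.14, adjusted p = 2.51e-05). Pex16 gave 0.67 and -0.32, Pex14 0.69 and -0.25, and Pex3 0.30 and -0.41. Pex11a, which divides peroxisomes, kept a smaller rise, 0.54 against 2.13. Over the list, 9 of 21 genes rose and 6 fell in LWT, whereas 3 rose and 13 fell in LKO. Among all genes, 18.9% rose in LWT and 20.9% in LKO, and 19.4% fell in each.

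**Figure D3:**
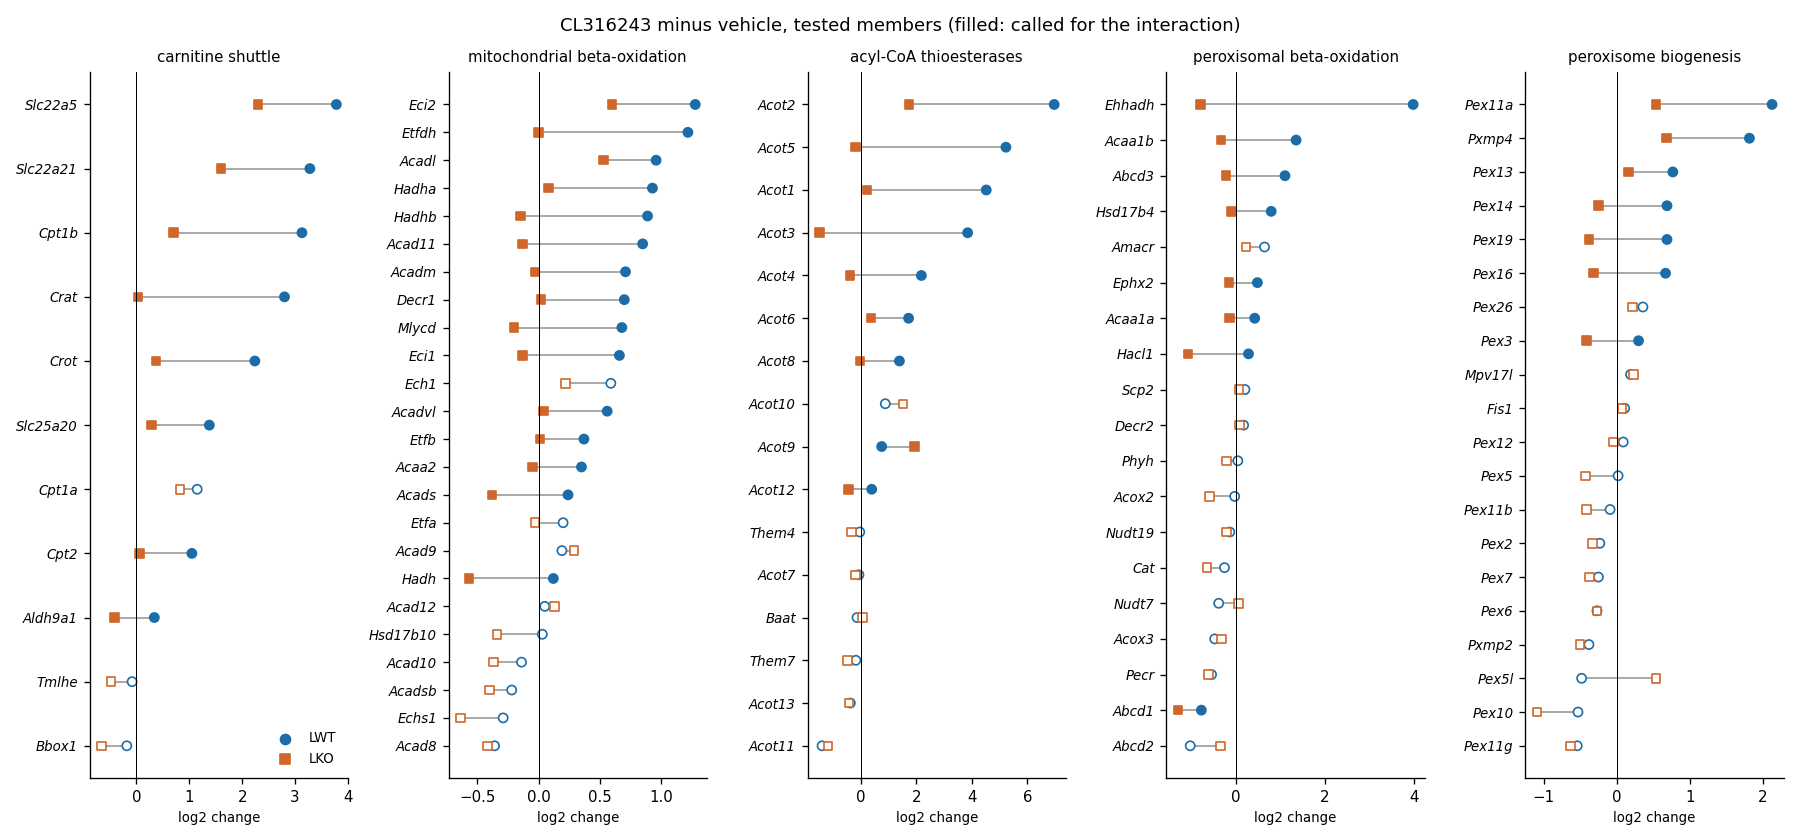
CL316243 minus vehicle (horizontal axis, log2) for tested members of 5 lists, in LWT (circles) and LKO (squares), joined by a line; filled symbols were called for the interaction. The filled squares lie left of the filled circles of the same gene, except for Acot9, and those of Pex3, Pex14, Pex16 and Pex19 lie left of 0.

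PPARα with RXR binds a direct repeat of 2 hexamers 1 base apart. AGGTCA, any base and AGGTCA again were searched for on both strands, with up to 2 mismatches, in the 250 bases upstream of the RefSeq start (GRCm38.p6). Of the 48 genes called in these 5 lists, 37 had a promoter in the table used and 3 held a match: Acot12, Acot4 and Aldh9a1. They are printed to show what such a match looks like, with the match in capitals:
Acot12 (chr13:91741381-91741453, + strand): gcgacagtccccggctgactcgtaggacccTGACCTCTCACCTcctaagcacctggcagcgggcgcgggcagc
Acot4 (chr12:84038336-84038378, + strand): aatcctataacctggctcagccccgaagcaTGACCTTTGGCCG
Aldh9a1 (chr1:167349817-167349889, + strand): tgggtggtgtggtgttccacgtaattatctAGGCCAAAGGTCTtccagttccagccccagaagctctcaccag
The Acot12 match had 1 mismatch and lay on the opposite strand. A match was present in 8 of 239 lost rises (3.35%), 1 of 66 reduced rises (1.52%) and 6 of 69 reversed rises (8.70%), beside 436 of 12541 genes tested (3.48%). A match in this window is a description and not a bound site.

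The ω-hydroxylases oxidise fatty acids from their methyl end. Cyp4a10 rose by 3.99 in LWT and its LKO effect was 0.30 (interaction -3.69 ± 0.74, adjusted p = 0.00367), from vehicle levels that were lower in LKO by 2.19. Its near-identical neighbour Cyp4a31 gave 4.07 and 0.47, and the probes may read both. Cyp4a14 rose by 7.02 in LWT, where it was well above background on 3 of 6 vehicle arrays. In LKO it was so on 1 of 6 vehicle arrays and 5 of 6 agonist arrays. The interaction was called under all 13 alternatives run for it, at -5.72 to -4.43. Aldh3a2, which clears fatty aldehydes, lost a rise of 1.07.

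Genes of lipid droplets and lipolysis split by class. Cidec, a droplet fusion protein, rose by 7.14 in LWT and by 3.86 in LKO (interaction -3.28 ± 0.49, adjusted p = 0.000154). Plin5 and Hilpda, which restrain lipolysis at the droplet, were reduced too, at 2.13 and 0.96 and at 4.06 and 1.53. The Plin5 call was lost in 7 of 24 fits that left out 1 array. G0s2, the inhibitor of the lipase Pnpla2, lay between 1.5 and 3.74 in LWT_Vehicle (median 3.30) and between 6.00 and 6.35 in LWT_Beta3 (median 6.23). In LKO it spread from 2.86 to 5.21 under vehicle (median 3.88) and from -0.13 to 4.40 under CL316243 (median 3.05). The LWT rise was 3.19, and the LKO effect of -1.23 was not called (interaction -4.42 ± 0.78, adjusted p = 0.00097). Pnpla2 itself and Fitm2 lost rises of 1.49 and 1.39. Lipe, hormone-sensitive lipase, was reversed at 0.69 and -0.37. Plin3 was amplified, at 0.51 and 1.46. Over the list, 15 of 26 genes rose in LWT and 10 in LKO, beside 18.9% and 20.9% of all genes. The interaction was called for 34.6% of the list, beside 5.41% of all genes.

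Other steps of fuel use gave fewer calls, mostly of the same sign. Acsl1, the main hepatic acyl-CoA synthetase, had a median of 7.12 in LWT_Vehicle and 8.29 in LWT_Beta3, and of 6.75 in LKO_Vehicle and 6.01 in LKO_Beta3. In LKO all mice under the agonist (5.45 to 6.54) lay below all under vehicle (6.66 to 7.15). The effects were 1.05 and -0.76 (interaction -1.81 ± 0.28, adjusted p = 0.00029). Acat1, a thiolase of ketone metabolism, was reversed, at 0.51 and -0.39. Pdk4, which shuts off pyruvate dehydrogenase, rose by 6.77 in LWT and 2.04 in LKO, from a vehicle level that was higher in LKO by 2.04 (interaction -4.73 ± 0.62, adjusted p = 3.38e-05). Its opponent, the phosphatase Pdp1, was reversed at -0.54 and 0.55. Among mitochondrial carriers, Slc25a42, which imports coenzyme A, lost a rise of 1.82, and Slc25a34 one of 2.89, though another Slc25a34 probe gave an interaction of -0.39 against -2.24. Ppcs of coenzyme A synthesis was reversed, at 0.72 and -0.52. So was Lpcat3, which remodels phospholipids, at 0.49 and -0.77. In the TCA cycle 5 of 22 genes were called (22.7%, beside 5.41% of all genes), all lower. The call for Dlst was lost in 19 of 24 fits that left out 1 array. Of 43 ribosome biogenesis genes, 22 rose in LWT and 5 in LKO, beside 18.9% and 20.9% of all genes. The interaction was called for 5 of them (11.6%), of which Nop2 and Grwd1 lost the call in 15 and 18 such fits. Without LKO_Beta3 replicate 3 it was called for 9. With slide and row as terms it was called for 2, and with the replicate number as a block also for 2.

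Some textbook targets of PPARα were not called. Vnn1 had effects of 2.67 and 0.85 (adjusted p = 0.191) and Angptl4 of 2.18 and 1.20 (adjusted p = 0.186). The Vnn1 level was far lower in LKO under both treatments. It had medians of 0.01 in LWT_Vehicle and 2.86 in LWT_Beta3, and of -4.47 in LKO_Vehicle and -3.67 in LKO_Beta3. In some group Vnn1 was well above background on fewer than 4 of 6 arrays. The Vnn1 interaction, -1.82, was called with the normexp background correction (-2.25, adjusted p = 0.000351) and in the series table (-2.24, adjusted p = 0.00386). The 95% intervals of the interaction for Vnn1 and Angptl4, -3.39 to -0.24 and -1.81 to -0.14, leave room for a sizeable difference. Fgf21, a fasting hormone of the liver, lay between -2.45 and 0.67 in LWT_Vehicle and between 2.75 and 4.73 in LWT_Beta3. In LKO_Vehicle it was not well above background on any array, and in LKO_Beta3 it lay between -1.90 and 2.13. It was at least 29.6-fold higher in LKO_Beta3 than in LKO_Vehicle. Its interaction was not called and changed sign with the background correction, from 1.65 to -1.28. For the bound, the dim group is set at the lowest signal well above background on each array, or at its own signal where that is higher.

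**Figure D4:**
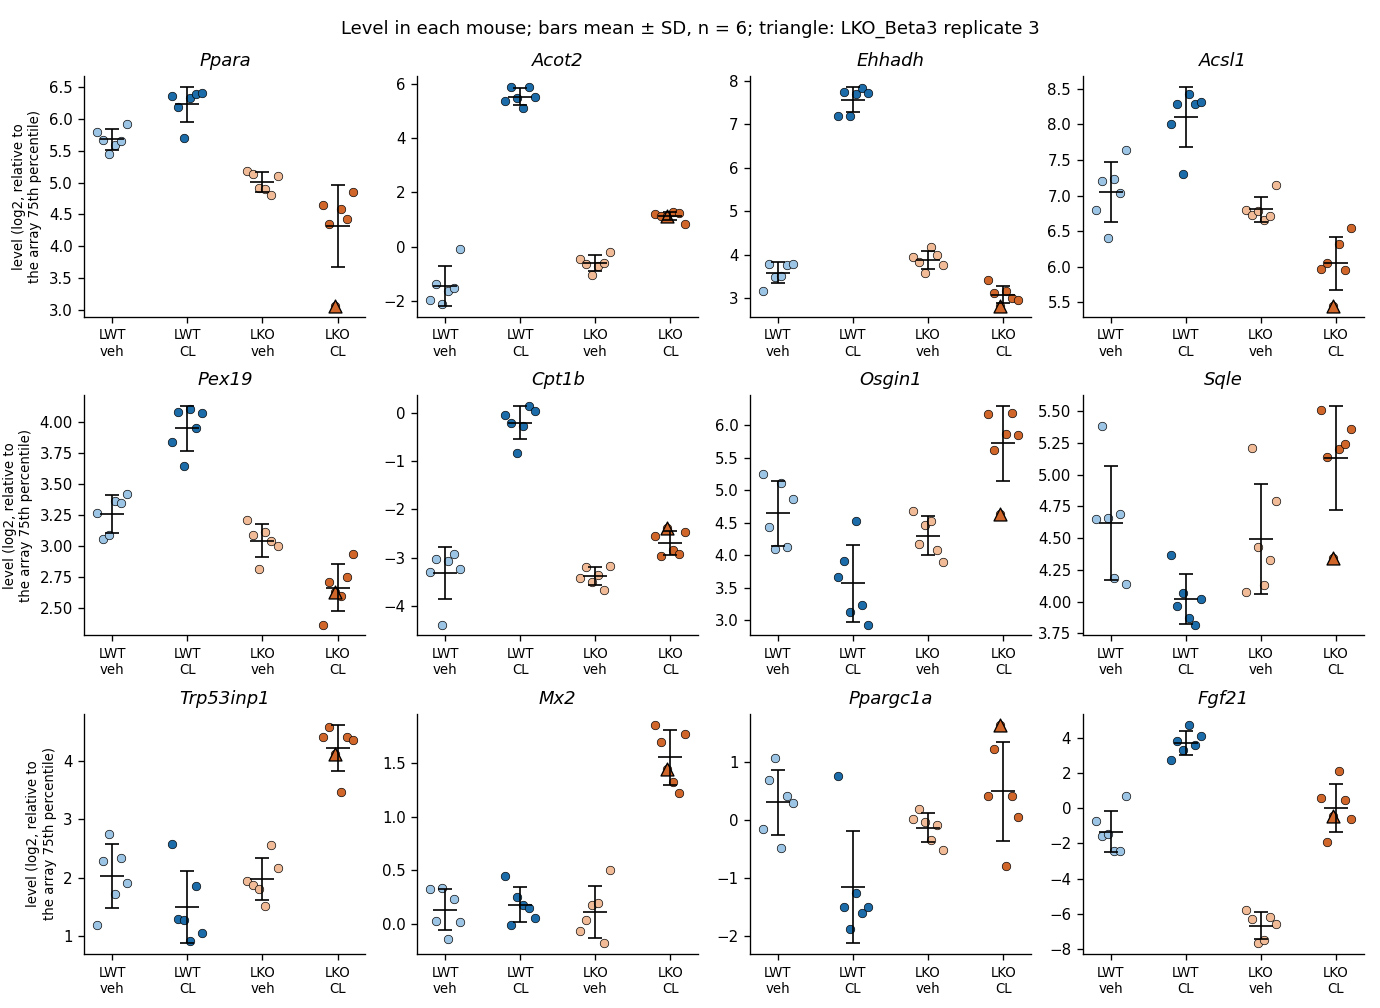
Level (vertical axis, log2, relative to the array's 75th percentile) of 12 genes in each of the 24 mice, by genotype and treatment, with the mean and SD of 6 mice; the triangle is LKO_Beta3 replicate 3. Ehhadh, Acsl1 and Pex19 are raised by the agonist in LWT and lowered in LKO, Osgin1 and Sqle move the opposite way, and Trp53inp1 and Mx2 stand high in LKO_Beta3 alone.

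Falls in LWT that became rises in LKO were fewer. Osgin1, an NRF2-driven oxidative stress gene, lay between 4.09 and 5.25 in LWT_Vehicle (median 4.64) and between 2.93 and 4.53 in LWT_Beta3 (median 3.44). It lay between 3.89 and 4.67 in LKO_Vehicle (median 4.32) and between 4.63 and 6.19 in LKO_Beta3 (median 5.86). The groups overlapped within each genotype, and the agonist groups of LWT and LKO did not (-1.08 and 1.42, interaction 2.50 ± 0.40, adjusted p = 0.000303). The lysosomal sialidase Neu1 gave -0.44 and 0.42, the chaperone Calr -0.28 and 0.27, and Stat5b of growth hormone signalling -0.36 and 0.65. Ppp4r4 and the pancreatic protease Ctrc were reversed at -1.44 and 0.92 and at -1.37 and 0.75. Cela2a, another pancreatic protease, lost a fall of 1.92. Among lost falls were also Nampt of NAD synthesis, at -0.82 and 0.38, and Ppargc1a, the PGC-1α coactivator, at -1.47 and 0.62. Ppargc1a rested on few mice: in LWT_Beta3 5 mice lay between -1.88 and -1.26 and replicate 1 at 0.77, the call was lost in 4 of 24 fits that left out 1 array, and the interaction was 3.77, 2.09 and 0.42 within slides 1 to 3.

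SREBP2 controls the genes of cholesterol synthesis. In LWT 13 of 27 fell and 3 rose, and in LKO 4 fell and 8 rose. Of all genes, 19.4% fell in each genotype, and 18.9% rose in LWT and 20.9% in LKO. The median effect was -0.32 in LWT and 0.00 in LKO. The interaction was called for 4 genes (14.8%, beside 5.41% of all genes), all with the more positive response in LKO. Sqle, the second committed step of sterol synthesis, had medians of 4.65 and 4.00 in LWT and 4.38 and 5.22 in LKO, with overlap in both genotypes (-0.60 and 0.64, interaction 1.24 ± 0.30, adjusted p = 0.0167). Cyp51 was gained at 0.93, Msmo1 lost a fall of 1.17 (a call lost in 8 of 24 fits that left out 1 array), and Stard4 was reduced, at -1.69 and -0.65. The median interaction of the list was -0.12, 1.14 and 0.55 within slides 1, 2 and 3. LKO_Beta3 replicate 3, on slide 1, had the lowest mean level of its group, and without it 8 genes were called.

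Gained rises were led, among genes above background in all groups, by Trp53inp1, a p53 target of stress and autophagy. It lay between 1.18 and 2.75 in LWT_Vehicle (median 2.10), between 0.92 and 2.58 in LWT_Beta3 (median 1.28) and between 1.52 and 2.56 in LKO_Vehicle (median 1.91). In LKO_Beta3 it lay between 3.47 and 4.59 (median 4.38), above every other mouse (-0.54 and 2.25, interaction 2.79 ± 0.39, adjusted p = 5.91e-05). Col8a1, a short-chain collagen, gave -0.36 and 2.11. S100g, a calcium-binding protein, was well above background on all 6 LKO_Beta3 arrays, on 1 of 6 LKO_Vehicle arrays and on no LWT_Beta3 array. It was at least 49.2-fold higher in LKO_Beta3 than in LWT_Beta3, with LKO_Beta3 mice spread from -2.92 to 3.14. Gclc, which makes the first step of glutathione synthesis, was gained at 1.1 and Atg14 of autophagy at 1.14. Nqo1, an NRF2 antioxidant response gene, went the other way, at -0.07 and -0.75 (interaction -0.68). Of the 28 genes of that list, 2 were called with the more positive response in LKO and 1 with the more negative. That was 10.7%, beside 5.41% of all genes, and the median interaction of the list was 0.001. Sat1, Maff and Serpina7 were amplified, at 1.15 and 2.85, 0.93 and 2.70, and 1.97 and 5.12.

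Among interferon-response genes, in LWT 9 of 36 rose and 5 fell, and in LKO 17 rose and 2 fell, beside 18.9% and 20.9% of all genes that rose. The interaction was called for 5 (13.9%, beside 5.41% of all genes), all gained rises: Usp18, Mx2, Isg15, Irgm1 and Stat2. Without LKO_Beta3 replicate 3 it was called for 9. Mx2, an antiviral GTPase, lay between -0.18 and 0.50 in the 3 other groups and between 1.22 and 1.86 in LKO_Beta3 (0.04 and 1.44, interaction 1.40 ± 0.18, adjusted p = 1.97e-05). It was 1.29, 1.89 and 1.0 within the slides. Usp18, which removes the ubiquitin-like Isg15, gave 0.31 and 1.95, and Isg15 gave -0.23 and 0.71. No LKO_Beta3 mouse overlapped an LKO_Vehicle mouse in Mx2, Usp18 or Isg15. The share of all genes without such overlap was not computed. For Isg15 the LKO_Beta3 range, 3.49 to 4.53, overlapped that of LWT_Vehicle, 2.82 to 3.66. Within slides 1 to 3 the interaction was 0.62, 2.86 and 1.42 for Usp18 and 0.17, 1.95 and 0.69 for Isg15. Ifit1 and Ifit3 rose in LKO, by 0.96 and 0.89, and were not called for the interaction. The median interaction of the list was 0.32, and 0.04, 0.80 and 0.27 within slides 1 to 3. Antigen-processing members such as Psmb9 fell in both genotypes, by 1.08 and 1.02.

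The interferon-activated complex that holds STAT2 and IRF9 binds a repeat of TTTC, searched here as TTTC, any 2 bases and TTTC, on both strands with no mismatch; copies may overlap. Among the 5 called interferon genes, 3 had a promoter in the table used, and all 3 held a match, beside 411 of 12541 genes tested (3.28%) and 7 of 146 gained rises (4.79%). These windows are shown because the genes rose together in LKO, with matches in capitals:
Isg15 (chr4:156200845-156200926, - strand): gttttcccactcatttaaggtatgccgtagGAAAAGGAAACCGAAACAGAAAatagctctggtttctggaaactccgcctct
Irgm1 (chr11:48871421-48871480, - strand): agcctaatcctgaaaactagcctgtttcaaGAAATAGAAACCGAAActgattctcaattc
Stat2 (chr10:128270248-128270315, + strand): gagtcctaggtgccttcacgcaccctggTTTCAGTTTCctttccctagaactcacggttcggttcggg
Isg15 held 3 overlapping copies and Irgm1 held 2. In both they read on the opposite strand. These genes come from a list of interferon-response genes, and its uncalled members were not counted. The matches therefore cannot be tied to the interaction call. As above, a match is a description and not a bound site.

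Stress and inflammation lists had larger median effects in LKO, but few interaction calls. Of 29 ATF4 integrated stress response genes, 9 rose in LWT and 22 in LKO, beside 18.9% and 20.9% of all genes, with medians of 0.40 and 1.06. The difference itself was called for 2 (6.9%, beside 5.41% of all genes), Sars (0.19 and 0.81) and Shmt2 (-0.22 and -0.63). Shmt2 went against the list, with the more negative response in LKO. Without LKO_Beta3 replicate 3 the difference was called for 3 genes, all with the more positive response in LKO. Nupr1, Phgdh and Mthfd2 rose in LKO by 3.48, 1.82 and 2.42 without an interaction call. Endoplasmic reticulum chaperones and XBP1 targets fell in LWT for 10 of 31 genes and rose in LKO for 11, beside 19.4% and 20.9% of all genes. There were 3 interaction calls (9.68%, beside 5.41% of all genes), Calr, Derl2 and Ero1lb, the last of them lost in 17 of 24 fits that left out 1 array. Hspa5, the master chaperone, was at -0.03 and 0.56. Acute phase proteins rose in both genotypes, 24 and 28 of 34, beside 18.9% and 20.9% of all genes. The interaction was called for 3 (8.82%, beside 5.41% of all genes), Crp, Saa4 and Cp. Cp, ceruloplasmin, lay between 6.63 and 6.95 in the 3 other groups and between 7.18 and 7.46 in LKO_Beta3 (interaction 0.53 ± 0.08, adjusted p = 0.000313), although its 5 probes gave interactions from -0.17 to 1.60. The other Crp probe gave -0.05 against 1.07, and the Crp and Saa4 calls were lost in 15 and 7 of 24 fits that left out 1 array. Saa1 and Lcn2 rose in both and were not called (adjusted p = 0.173 and 0.761). Nfkb2 and Relb were gained, at 1.04 and 1.14.

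These last shifts differed between slides. The median interaction of the ATF4 list was 1.14, 0.25 and 0.35 within slides 1, 2 and 3, that of the NF-kB list 1.24, -0.31 and -0.03, that of acute phase proteins 0.86, -0.20 and -0.04, and that of immediate early genes 1.53, -0.09 and -0.11. Without LKO_Beta3 replicate 3, on slide 1, they were 0.33, 0.14, 0.11 and 0.29. Neutrophil markers moved too: in LWT 3 of 8 rose and 1 fell (Ly6g, -0.38), and in LKO 6 rose. Of all genes, 18.9% rose in LWT and 20.9% in LKO, and 19.4% fell in LWT. None of the markers was called for the interaction by limma, with 1 at an unadjusted p under 0.05. Their mean level relative to LWT_Vehicle ranged from -0.27 to 1.32 in LWT_Beta3 and from 0.15 to 2.30 in LKO_Beta3, and their summed log2 level from 6.69 to 6.90 and from 6.64 to 7.39. Their part in the inflammation lists was not tested. The carnitine shuttle gave -0.81, -0.93 and -1.24 within the slides and mitochondrial β-oxidation -0.56, -0.35 and -0.59.

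**Figure D5:**
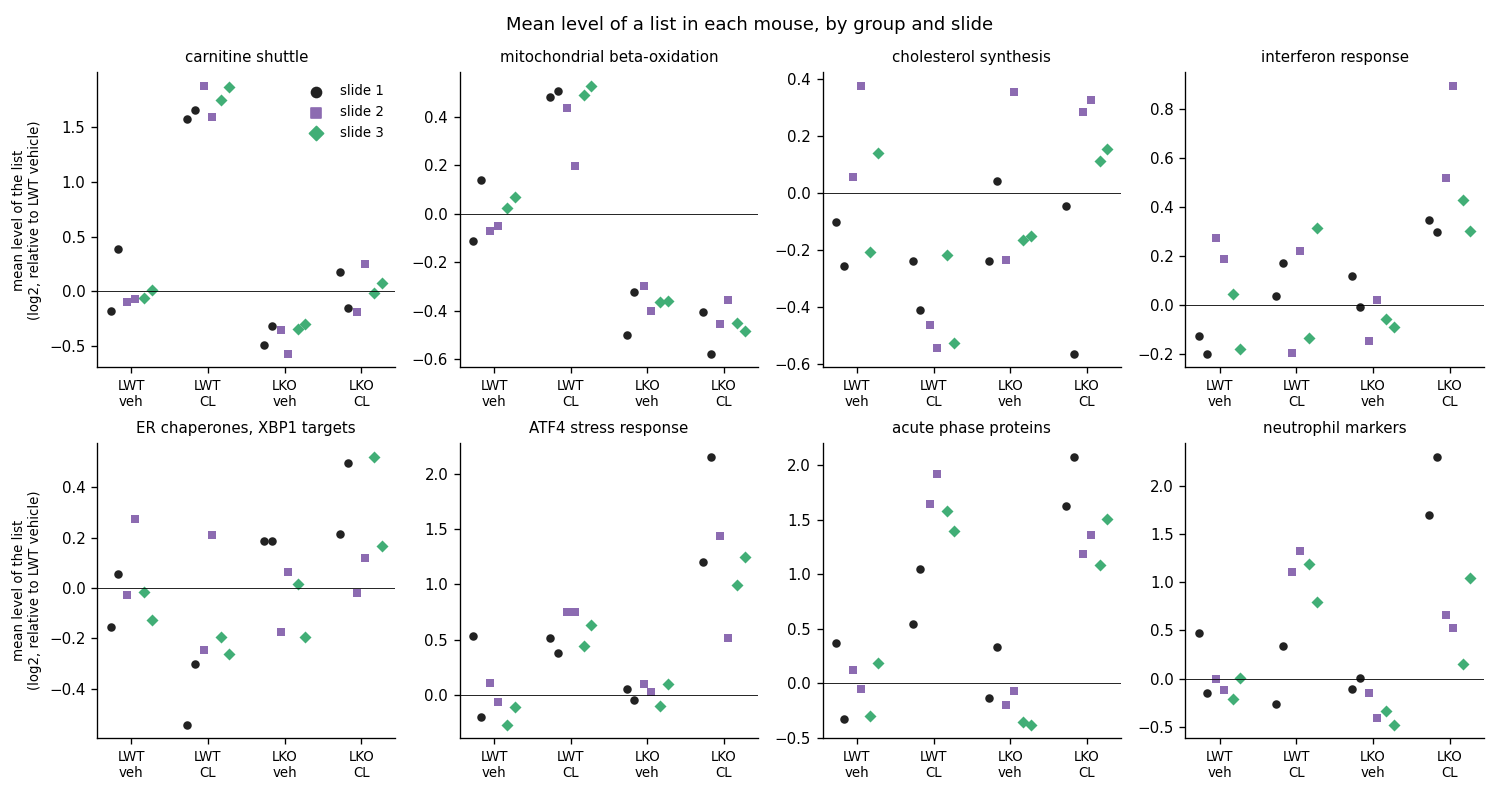
Mean level of each list in each of the 24 mice (vertical axis, log2, relative to the LWT_Vehicle mean of each gene), by group, with the slide as symbol and colour. The carnitine shuttle and mitochondrial β-oxidation separate LWT_Beta3 from the 3 other groups on every slide, whereas in the ATF4, acute phase and neutrophil panels the highest LKO_Beta3 mouse is replicate 3, on slide 1.

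Gained falls were led by Ppargc1b, the PGC-1β coactivator. Its LKO_Beta3 mice lay between -3.29 and -0.06 (median -0.60), below all 18 other mice, whose lowest was 0.35 (0.30 and -1.83, interaction -2.13 ± 0.52, adjusted p = 0.0163). Its lowest mouse was replicate 3, and the interaction without it was -1.66. F3, tissue factor, gave 0.43 and -1.44, P2ry1, a nucleotide receptor, 0.83 and -0.97, and Mtap of methionine salvage -0.13 and -1.34. Ccnd1, cyclin D1, gave 0.18 and -1.39, with a call lost in 16 of 24 fits that left out 1 array. In cytochrome P450 families 1 to 3, which handle drugs and steroids, 10 of 44 genes fell in LWT and 24 in LKO, beside 19.4% of all genes in each. The interaction was called for 3 gained falls and for Cyp2c70, a reversed fall, at -0.52 and 0.42. Without LKO_Beta3 replicate 3 it was called as more negative in LKO for 6 and as more positive for 1. The gained falls were Cyp1a2, Cyp2a22 and Cyp2d22, at -0.60, -0.92 and -0.72, and the Cyp2a22 call was lost in 16 such fits. Cyp1a2 and Cyp2a22 started higher in LKO under vehicle, by 0.76 and 0.89. Srebf1, the regulator of lipogenesis, was amplified, from a fall of 1.96 in LWT to one of 3.21 in LKO, but the call was lost in 18 of 24 such fits and the interaction was 0.05 within slide 2. Fasn (adjusted p = 0.916) and Cyp7a1 (adjusted p = 0.923), which fell in both genotypes, were not called. Cyp7a1 was well above background on 2 of 6 arrays in each agonist group.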

How the data were processed

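Each of the 24 arrays held the liver RNA of 1 mouse (200 ng, Cy3), and the spots were quantified by version 10.10.1.1 of Agilent Feature Extraction, which the file headers and the submitters' processing notes name. The deposited scanner files hold a linear intensity per spot, background-subtracted and detrended per the file headers. The authors also deposited a table of log2 values of 31367 probes. Its columns share 1 set of quantiles, so it was quantile normalized; it served as an alternative.

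Here log2(processed signal) minus the array's 75th percentile was used. Control and outlier spots were left out and spots of a probe averaged. Probes stayed in where some group had 4 or more of its 6 arrays well above background, which left 32037 of 56605 probes, and the brightest probe stood for each of 21331 gene names. Of these names 15935 matched RefSeq. limma 3.58.1 in R 4.3.3 fitted the 4 groups without covariates over all genes, with Benjamini-Hochberg adjustment. The scripts were tested on simulated data. The number of arrays limits the precision, and p-values measure the spread between mice.

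The members and lists were chosen with earlier results of these data known. Genes were named by class (the 3 with the largest interaction in each class and direction, and 1 dim gene), by list (the top 2 or 3 called genes of lists with at least 3 calls) and from a fixed set of 16 PPARα, lipid and acute phase genes with Ppara. Other list members were named after their values were seen. Some genes counted in the lists are not reported here by name. Sequences come from RefSeq tables of GRCm38.p6. Probe positions are those of the array annotation (mm9); exons and introns at them were not analysed here. Alternatives covered background correction, normalization, filter, blocks, weights, thresholds and leaving out each array; 2 were added after seeing the data, the percentile over kept probes and the lists without LKO_Beta3 replicate 3.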

Additional observations from a re-analysis of the deposited data

Results flagged for a closer look

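The CL316243 response differed between the genotypes, by the test of the difference itself, for 1153 genes, and 130 of these were reversed, with called effects of opposite sign in LWT and LKO.

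Among the named genes, 39 of 400 groups of 6 mice had 1 mouse far from the others (9.75%), where Dixon's criterion gives about 1 in 20 groups by chance. LKO_Beta3 held 19 of them, 15 in replicate 3. LWT_Beta3 held 11, LWT_Vehicle 5 and LKO_Vehicle 4. LKO_Beta3 replicate 3 lay below the rest of its group in log2 level for Snai2 at -1.96 (nearest mouse -0.77), Osgin1 at 4.63 (nearest mouse 5.61), Ppargc1b at -3.29 (nearest mouse -0.86), Serpina7 at 0.32 (nearest mouse 3.11). It did so too for Crat at 0.08 (nearest mouse 1.98), Pxmp4 at 2.08 (nearest mouse 2.85), Sqle at 4.34 (nearest mouse 5.14), Msmo1 at 3.94 (nearest mouse 4.98). It did so too for Ppara at 3.06 (nearest mouse 4.35), Angptl4 at 5.11 (nearest mouse 5.99). LKO_Beta3 replicate 3 lay above the rest of its group in log2 level for Slc16a1 at 4.62 (nearest mouse 3.53), Hilpda at 2.96 (nearest mouse 1.33), Tfe3 at 4.71 (nearest mouse 3.82), Nop2 at 3.65 (nearest mouse 3.13). It did so too for Grwd1 at 1.17 (nearest mouse 0.62).

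In LKO_Beta3, replicate 6 stood apart for Acot2 at 0.84 (nearest 1.11), replicate 5 stood apart for Zfp395 at -2.08 (nearest -1.59), replicate 1 stood apart for Acsl5 at 4.94 (nearest 4.28), replicate 6 stood apart for Isg15 at 4.53 (nearest 3.81). In LKO_Vehicle, replicate 4 stood apart for Etaa1os at -2.92 (nearest -2.40), replicate 1 stood apart for Pitpnc1 at 2.67 (nearest 2.22), replicate 6 stood apart for Acsl1 at 7.15 (nearest 6.80), replicate 6 stood apart for Ccnd1 at 2.51 (nearest 1.99). In LWT_Beta3, replicate 3 stood apart for Arhgap20os at -3.22 (nearest -2.20), replicate 1 stood apart for Ppargc1a at 0.77 (nearest -1.26), replicate 3 stood apart for Snai2 at -2.57 (nearest -1.97), replicate 3 stood apart for Dlg4 at -1.65 (nearest -0.83). In LWT_Beta3, replicate 3 stood apart for P2ry1 at -0.48 (nearest 1.1), replicate 3 stood apart for Acat1 at 3.86 (nearest 4.42), replicate 3 stood apart for Slc25a42 at 5.35 (nearest 5.91). In LWT_Beta3, replicate 4 stood apart for Derl2 at 5.72 (nearest 5.39), replicate 3 stood apart for Ppara at 5.70 (nearest 6.19), replicate 4 stood apart for Saa1 at 8.81 (nearest 9.60), replicate 4 stood apart for Lcn2 at 4.61 (nearest 7.77). In LWT_Vehicle, replicate 6 stood apart for Cela2a at -1.29 (nearest -0.70), replicate 6 stood apart for Acot2 at -0.08 (nearest -1.39), replicate 4 stood apart for Olfml2b at -1.57 (nearest -3.79), replicate 3 stood apart for Cpt1b at -4.39 (nearest -3.29). In LWT_Vehicle, replicate 3 stood apart for Tdo2 at 6.94 (nearest 6.54).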

How the results depend on the processing

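Of the 102 named genes called for the interaction, 81 kept the call in all 24 fits that left out 1 array and 54 under every alternative that tested them (13 or 14); 101 had the same sign within all 3 slides, the exception being Srebf1, at 0.05 within slide 2. Without a filter on dim probes 664 interactions were called, with 309 lost, 80 reduced, 75 reversed, 177 gained and 23 amplified. With array weights there were 2158, with 843, 341, 222, 571 and 164. At an adjusted p under 0.01 there were 503, with 263, 47, 43, 136 and 11. Requiring 1.5-fold left 3801 genes for the CL316243 effect in LWT, 3885 for the CL316243 effect in LKO, and 87 reduced, 40 reversed, 198 gained and 18 amplified. Requiring an LKO effect within 25% of the LWT effect left 309 lost. The cause of these shifts was not tested beyond what the stricter rules set by construction. Leaving out 1 array gave 935 to 1535 interactions, 7315 to 8902 genes in LWT, 7835 to 8894 in LKO, 374 to 669 lost, 115 to 224 reduced, 105 to 154 reversed, 254 to 400 gained and 43 to 80 amplified. The highest count of interactions was without LKO_Beta3 replicate 3, when 405 of the 467 lost genes remained lost.

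Among genes that were not called, the sign of the interaction turned for Fgf21 (-1.28 with normexp, -0.72 in the series table) and Cyp7a1 (-0.08 and -0.01, and -0.44 to 0.97 when 1 array was left out). It turned for Fasn too (-0.09 to 0.50 when 1 array was left out). Dlg4, which was called, gave 0.05 in the series table, and its other probe gave 0.46 against -5.27; the cause was not tested.

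With the replicate number as a block, the interaction was called for 1217 genes. Same-numbered mice deviated together by r = -0.18 to 0.42 over 36 pairs, above 0.1 in 8. Mice with different numbers were not compared, so whether the numbers pair the mice was not tested.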
